A study of Homo sapiens with 6 samples.

Results

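The 9 genes described here encode ligands and receptor chains of the interleukin-6 (IL6) family of cytokines. They were the ligands IL6, LIF, IL11 and CLCF1 and the receptor chains IL6ST, IL6R, IL11RA, LIFR and OSMR. They were taken by name from a table of 58735 genes, whatever their values, and all 9 were among the 15242 genes with enough counts to be tested. RNA had been sequenced from parent MDA-MB-231 cells, a triple-negative breast cancer (TNBC) line whose genotype is labelled WT, and from Adriamycin-resistant cells derived from that line (ADRr, named MB_ADR12 in the labels). Adriamycin (ADR, doxorubicin) is an anthracycline that damages DNA through topoisomerase II. According to the methods, the resistant cells were selected in rising doses of ADR and then cloned by limiting dilution, so the ADRr libraries describe selected clonal cells and not resistant cells in general. Both groups grew in DMEM with fetal bovine serum, and whether ADR was in the medium at harvest is not given in the sources used here. There were 3 libraries a group. The series' design text speaks of 3 time points, none of which the labels name, and nothing says that the libraries came from separate cultures, so p-values measure only the spread between these libraries, which may be technical.

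Total counts lay between 15983985 and 18272314 per library. A count of 0 allows up to 3 counts, which is 0.164 to 0.188 CPM (the count relative to the library's total) and accounts for counting error alone. Libraries of one group differed by more than counting noise, a chi-square statistic over genes being 2.52 to 7.71 times its degrees of freedom, so none was a copy of another. Of 3 genes chosen as low in triple-negative cells, the hormone receptors ESR1 and PGR had at most 1 count and 0 counts per library. The sum of all 3 was 112 to 129 CPM in parent and 49.5 to 54.4 CPM in ADRr libraries. The third gene was thus not near the counting limit, and it was lower in ADRr cells. The summed level of 5 genes that MDA-MB-231 cells express (VIM, CD44, CAV1, KRT8 and KRT18) was 3160 to 3270 CPM in parent cells and 2570 to 2600 CPM in ADRr cells, and 4 of the 5 were lower in ADRr cells. Of 6 leukocyte markers, 5 stayed under 1 CPM in every library, 2 of them at 0, and the sum of all 6 was 3.34 to 4.76 CPM in parent and 1.23 to 2.24 CPM in ADRr libraries. All 4 endothelial markers stayed under 1 CPM. Of 5 fibroblast markers DCN was at 0 throughout, and their sum was 92.4 to 96.4 CPM in parent cells against 28.2 to 31.5 CPM in ADRr cells, largely through PDGFRB, a growth factor receptor that fell from 1074 ± 40.04 to 144 ± 12.2 normalized counts (counts scaled by edgeR's TMM method to a library of average size, mean ± SD, n = 3 libraries). The part of these marker differences in the results below was not tested.

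IL6 family cytokines signal through receptor complexes that share gp130, the protein made by IL6ST. IL6 and IL11 first bind their own receptor chains, IL6R and IL11RA, which do not signal by themselves, and these complexes then pair gp130 with gp130. LIF pairs gp130 with LIFR, oncostatin M pairs it with OSMR or LIFR, and CLCF1 acts through a complex of CNTFR, LIFR and gp130. The paired chains activate JAK kinases, which phosphorylate STAT3, and the STAT3 target SOCS3 then dampens the signal. IL6R can also be shed by proteases such as ADAM10 and ADAM17, and soluble IL6R lets cells without IL6R respond to IL6. In breast cancer cells the family is known for autocrine IL6 and STAT3 activity.

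The question was whether ADR-resistant cells differed from the parent line in the expression of the family. ADRr cells held more mRNA of 3 of the 4 ligands, with IL11 4.95-fold, IL6 3.93-fold and LIF 1.82-fold higher. Among the receptor chains, the shared chain IL6ST was 1.72-fold higher, and IL6R went from near the limit of counting to 16-fold more. IL11RA moved the other way, with a log2 fold change of -1.87. A gene was called where the quasi-likelihood test of edgeR gave a Benjamini-Hochberg adjusted p, taken over all tested genes, no higher than 0.05 and where the groups differed by 1.2-fold or more. By this rule 5 members were called higher (IL6, LIF, IL11, IL6ST and IL6R), 1 lower (IL11RA) and 3 were not called (CLCF1, LIFR and OSMR). Of all tested genes, 29.2% were called higher and 29.6% lower. In 7 members every ADRr library was above every parent library, and in the other 2, IL11RA and CLCF1, every one was below. Over all tested genes these shares were 34.5% and 34.7%. The median log2 fold change was 0.78 over the 9 members and -0.0061 over all tested genes, and the median absolute values were 0.862 and 0.455. In bulk RNA, a change in the number of cells that express a gene and a change in its RNA per cell cannot be told apart.

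**Figure D1:**
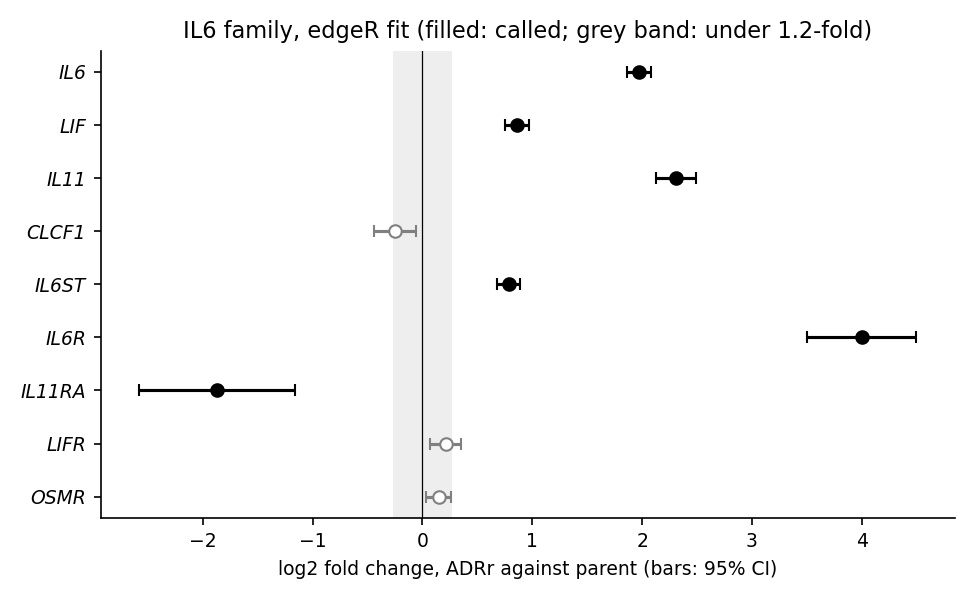
Log2 fold change of each member in ADRr against parent cells from the edgeR fit (x axis), with 95% confidence intervals as bars, over 3 libraries a group. Filled points passed the threshold, open points did not, and the grey band marks changes under 1.2-fold. IL6R lies farthest to the right at 4.0 and IL11RA farthest to the left at -1.87, while CLCF1, LIFR and OSMR lie within the band.

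IL6 (ENSG00000136244, chr7:22725884-22732002 of GRCh38, plus strand, 9 transcripts) encodes the cytokine that gives the family its name. Its normalized counts were 1736, 1756 and 1630 in the parent libraries and 6813, 6593 and 6720 in the ADRr libraries. The groups were far apart and the libraries of each group lay close together. The log2 fold change was 1.97 (standard error 0.052, 95% CI 1.87 to 2.08, adjusted p = 7.1e-19 with edgeR), and the value of 397 of the 15242 tested genes, or 2.60%, was at least as high. An antisense gene, AC073072.1, shares 428 of the 2069 exon bases of IL6, and whether the counting used strand is not given in the sources used here. AC073072.1 itself had 4 to 7 counts in parent and 10 to 21 counts in ADRr libraries.

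IL11 (ENSG00000095752, chr19:55364389-55370463, minus strand, 4 transcripts) encodes a cytokine best known from fibrosis and from bone metastasis of breast cancer. It had 355, 310 and 402 normalized counts in the parent libraries and 1667, 1941 and 1697 in the ADRr libraries. The lowest ADRr library was thus well above the highest parent library. The log2 fold change was 2.31 (standard error 0.086, 95% CI 2.13 to 2.49, adjusted p = 2.8e-16 with edgeR), an increase that 269 tested genes (1.76%) reached or exceeded.

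LIF (ENSG00000128342, chr22:30240447-30246851, minus strand, 2 transcripts) encodes leukemia inhibitory factor, a cytokine known from stem cell self-renewal. Its normalized counts were 1601, 1632 and 1665 in parent cells and 2988, 3033 and 2886 in ADRr cells. The spread within each group was small beside the difference between them. The log2 fold change was 0.86 (standard error 0.054, 95% CI 0.75 to 0.97, adjusted p = 2.7e-12 with edgeR), and 12.2% of the tested genes had a value at least as high. An antisense gene, AC004264.1, shares 175 of the 3969 exon bases of LIF. It had 15 to 21 counts in parent and 30 to 43 counts in ADRr libraries.

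CLCF1 (ENSG00000175505, chr11:67364168-67374177, minus strand, 2 transcripts) encodes cardiotrophin-like cytokine factor 1. It had 524, 508 and 605 normalized counts in parent cells and 483, 483 and 413 in ADRr cells. The groups did not overlap, but the lowest parent library lay close to the highest ADRr libraries. The log2 fold change of -0.25 (95% CI -0.44 to -0.06, adjusted p = 0.021 with edgeR) was short of the 1.2-fold threshold. CLCF1 was called lower when parent replicate 1, parent replicate 2, ADRr replicate 1 or ADRr replicate 2 was left out, with log2 fold changes of -0.28, -0.30, -0.28 and -0.28.

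The promoter stretches of IL6, IL11 and IL6R are shown because these 3 members rose the most. Each holds a match to a motif of a factor known to act on cytokine genes, that of IL6R because it was cut around its match. Windows from 250 bases before to 50 bases after a RefSeq start site (GRCh38.p14) were found for 7 of the 9 members, with 10 windows in all. They were searched on both strands for an NF-κB motif, for AP-1 (TGANTCA), for C/EBP (TTGCNNAA) and for STAT (TTCNNNGAA). Capitals mark the matches, and none of them overlapped another. The IL6 stretch is chr7:22726950-22727199 (plus strand), and holds C/EBP at -155 to -148 and NF-κB at -73 to -64 from the start site. The IL11 stretch is chr19:55370464-55370713 (minus strand), with AP-1 at -96 to -90. The IL6R stretch is chr1:154405363-154405392 (plus strand), just after the start site, with AP-1 at 38 to 44. No match was found in the 250 bases before the IL6R start site.
IL6 promoter: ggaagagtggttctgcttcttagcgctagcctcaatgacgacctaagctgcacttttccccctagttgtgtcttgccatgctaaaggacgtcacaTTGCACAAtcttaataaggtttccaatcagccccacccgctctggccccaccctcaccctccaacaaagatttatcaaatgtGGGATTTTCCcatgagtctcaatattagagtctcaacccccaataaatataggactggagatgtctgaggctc
IL11 promoter: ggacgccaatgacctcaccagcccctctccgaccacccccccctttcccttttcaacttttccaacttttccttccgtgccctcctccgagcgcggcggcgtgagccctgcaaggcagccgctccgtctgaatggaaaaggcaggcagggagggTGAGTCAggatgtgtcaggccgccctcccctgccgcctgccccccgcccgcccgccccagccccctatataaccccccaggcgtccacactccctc
IL6R after the start site: aggaccgtccgccgctcTGAGTCAtgtgcg
Of 35116 windows of the same length over all genes, 5.91% held the NF-κB motif, 7.71% AP-1, 10.5% C/EBP and 7.66% STAT, so each motif alone is common. OSMR, which was not called, also held AP-1 (4 to 10) and C/EBP (-73 to -66), and 2 of the 3 LIFR windows held STAT. C/EBP was matched in a window of LIFR as well (-31 to -24). No match was found in the windows of IL6ST and IL11RA. A match describes the letters of the window and says nothing of binding in these cells.

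IL6ST (ENSG00000134352, chr5:55935095-55994993, minus strand, 15 transcripts) encodes gp130, the signal chain common to the family. Its normalized counts were 9017, 9809 and 8615 in the parent libraries and 15861, 15539 and 15849 in the ADRr libraries. All ADRr libraries lay well above all parent libraries. The log2 fold change was 0.78 (standard error 0.049, 95% CI 0.68 to 0.89, adjusted p = 3.3e-12 with edgeR), and 13.9% of the tested genes had a value at least as high. The processed pseudogene IL6STP1, which resembles IL6ST, had 0 counts throughout. So had AC008914.1, an antisense gene that shares 797 of the 9292 exon bases of IL6ST.

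IL6R (ENSG00000160712, chr1:154405193-154469450, plus strand, 8 transcripts) encodes the chain that binds IL6. It had 13, 5 and 13 counts before normalization in the parent libraries and 181, 167 and 179 in the ADRr libraries. The parent libraries were thus only a little above the limit of 3 counts, while the ADRr libraries lay far above it and close to each other. After normalization the values were 13.4, 5.41 and 12.7 against 172, 175 and 167. The log2 fold change of 4.0 (standard error 0.24, 95% CI 3.51 to 4.49, adjusted p = 1.2e-12 with edgeR) was reached or exceeded by 60 tested genes (0.394%). On the scale log2(FPKM + 1) it was 1.21, since the pseudocount is far above the parent level. None of the exon bases of IL6R are shared with another gene.

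IL11RA (ENSG00000137070, chr9:34650702-34661892, plus strand, 15 transcripts) encodes the chain that binds IL11. It had 31, 42 and 71 counts before normalization in parent libraries and 15, 12 and 14 in ADRr libraries. The parent libraries spread widely among themselves, and even the lowest lay above every ADRr library. After normalization the values were 31.9, 45.4 and 69.1 against 14.3, 12.6 and 13.1. IL11RA fell by 1.87 on the log2 scale (standard error 0.34, 95% CI -2.58 to -1.16, adjusted p = 4.9e-05 with edgeR), and 347 tested genes (2.28%) had a value at least as low. The change was -1.53 without parent replicate 3 and -0.48 on the scale log2(FPKM + 1) with no filter, and the call held in both. GALT, a gene of galactose metabolism on the same strand, shares 334 of the 4271 exon bases of IL11RA, and was itself lower in ADRr cells with a log2 fold change of -0.70. AL162231.3, also on the same strand, shares 410 of the exon bases of IL11RA and had 0 counts in all libraries.

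LIFR (ENSG00000113594, chr5:38474963-38608354, minus strand, 9 transcripts), the second signal chain for LIF, had 1014, 1087 and 934 normalized counts in parent cells and 1217, 1157 and 1141 in ADRr cells. The groups did not overlap, but the log2 fold change of 0.21 (95% CI 0.07 to 0.35, adjusted p = 0.0089 with edgeR) was below the threshold on fold change. OSMR (ENSG00000145623, chr5:38845858-38945596, plus strand, 5 transcripts), the chain for oncostatin M, lies on the same chromosome arm, 354 kb away from midpoint to midpoint. It had 4156, 4199 and 3741 normalized counts in parent cells and 4358, 4399 and 4622 in ADRr cells. Its log2 fold change of 0.15 (95% CI 0.03 to 0.26, adjusted p = 0.021 with edgeR) was not called either. RICTOR, on the opposite strand, shares 229 of the 7174 exon bases of OSMR and had 1069 to 1187 counts in parent and 1475 to 1827 counts in ADRr libraries. For both chains the interval allows an increase of up to 0.35 and 0.26 on the log2 scale.

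To set the genes beside each other, levels per length were used, in fragments per kilobase of gene and per unit of library size (FPKM) as the authors deposited them. In parent cells the order was IL6ST at 56.3 ± 3.76 FPKM (SD, n = 3 libraries here and below), IL6 at 47.2 ± 1.95, OSMR at 32.1 ± 2.08, LIF at 23.5 ± 0.395 and CLCF1 at 15.8 ± 1.47 FPKM. Below these stood IL11 at 7.62 ± 0.974, LIFR at 4.87 ± 0.374, IL11RA at 0.653 ± 0.251 and IL6R at 0.0929 ± 0.0391 FPKM. The ranges of the 3 libraries did not touch between any neighbours in this order. In ADRr cells IL6 stood first at 186 ± 3.44 FPKM, before IL6ST at 97.2 ± 1.38, LIF at 42.9 ± 0.974, IL11 at 38.0 ± 3.13 and OSMR at 35.7 ± 1.21 FPKM. CLCF1 followed at 13.4 ± 1.16, LIFR at 5.67 ± 0.192, IL6R at 1.52 ± 0.0303 and IL11RA at 0.179 ± 0.012 FPKM. There the ranges of IL11 and OSMR overlapped, and those of the other neighbours did not. The 2 chains that bind a ligand without signalling thus changed places, with IL11RA above IL6R in every parent library and below it in every ADRr library.

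**Figure D2:**
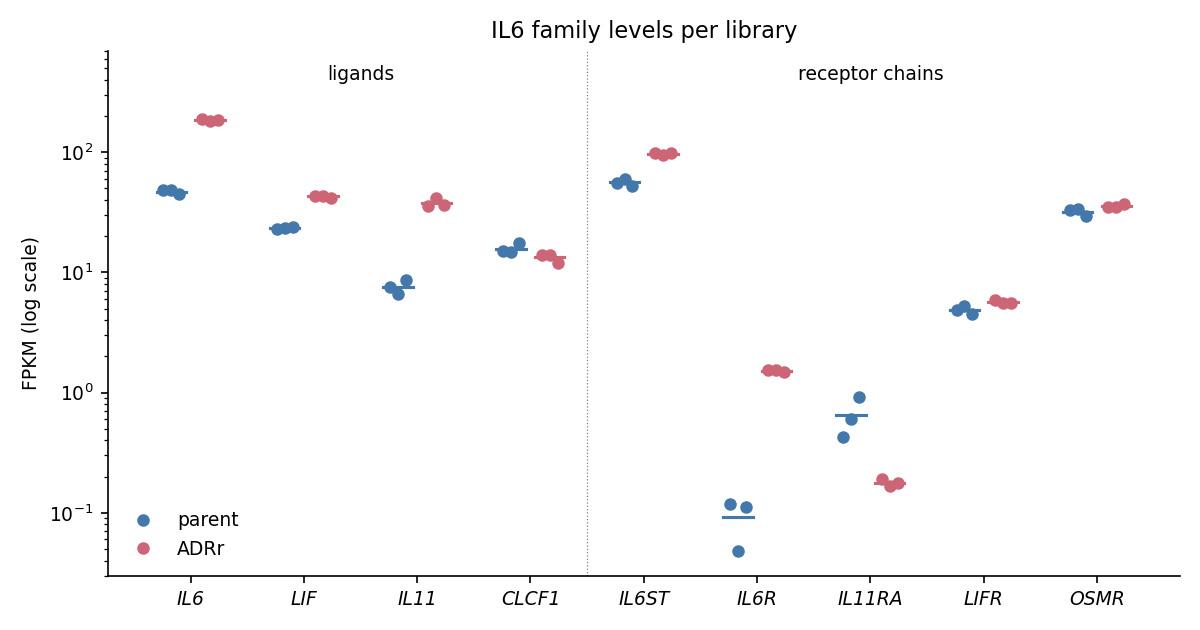
Level of each member in every library as deposited FPKM (y axis, log scale), with ligands on the left and receptor chains on the right. Each point is 1 library, 3 parent and 3 ADRr libraries a gene, and lines mark group means. IL6 lies between 44.9 and 48.5 FPKM in parent and between 182 and 189 FPKM in ADRr libraries, and IL6R and IL11RA lie under 2 FPKM in all libraries.

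The summed level of the 4 ligands was 94.1, 93.3 and 94.9 FPKM in the parent libraries and 282, 281.5 and 277 FPKM in the ADRr libraries. IL6 made up 50.1 ± 2.46% of the sum in parent cells and 66.4 ± 1.43% in ADRr cells. The share of IL11 went from 8.09 ± 0.966% to 13.5 ± 1.08%. LIF rose in level, but its share went from 25.0 ± 0.349% to 15.3 ± 0.219%, and that of CLCF1 from 16.8 ± 1.42% to 4.76 ± 0.370%. The 5 receptor chains summed to 94.0 ± 5.76 FPKM in parent and 140.2 ± 2.18 FPKM in ADRr cells. Summed ligand and receptor mRNA were thus about equal in parent cells, and the ligands stood well above the receptor chains in ADRr cells. IL6ST took 59.8 ± 0.775% of the receptor sum in parent and 69.3 ± 0.421% in ADRr cells. OSMR took 34.2 ± 0.913% and 25.4 ± 0.602%, and IL6R 0.1 ± 0.0453% and 1.09 ± 0.038%. These sums and shares are descriptions of mRNA, with no test.

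**Figure D3:**
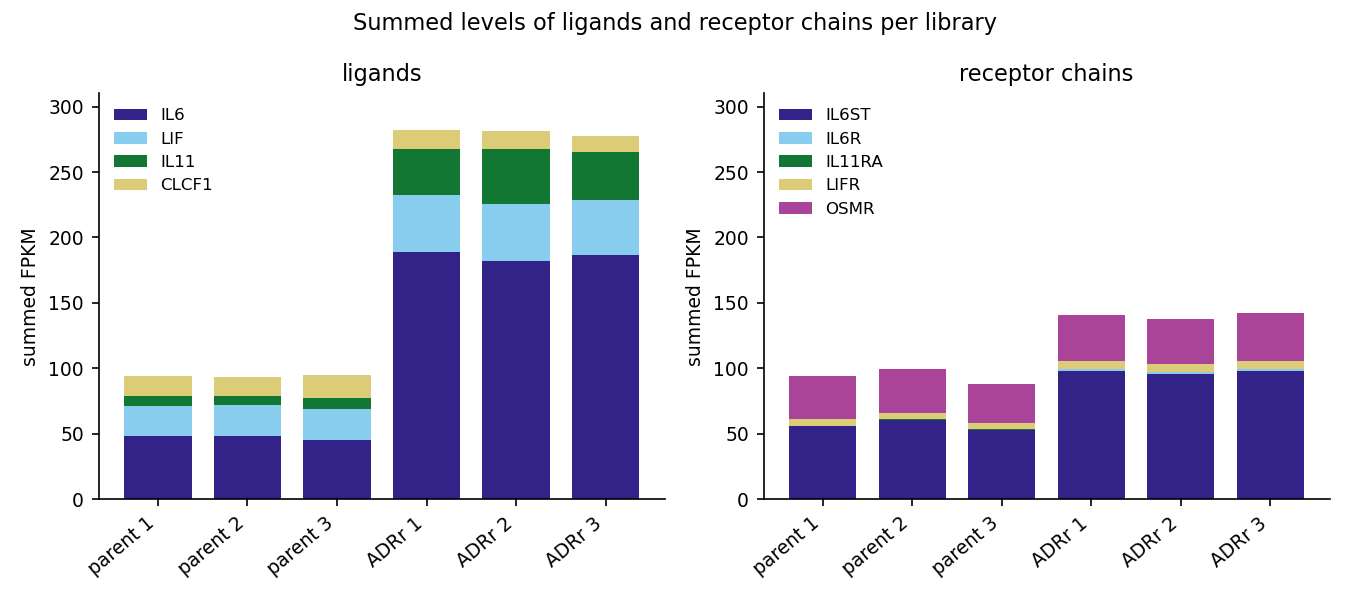
Summed FPKM of the 4 ligands (left) and of the 5 receptor chains (right) in each of the 6 libraries, with the colours giving each gene's part. The ligand sum is 93.3 to 94.9 FPKM in parent and 277 to 282 FPKM in ADRr libraries, with IL6 at 50.1% of it in parent and 66.4% in ADRr cells on average, while the receptor sum is mostly IL6ST and OSMR in both groups.

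Ratios between chains inside a library do not depend on scaling between libraries. The ratio of IL6R to IL6ST was 0.214, 0.0794 and 0.212% in the parent libraries and 1.56, 1.62 and 1.52% in the ADRr libraries. IL6R thus gained on the shared chain by 10.2-fold on average, although IL6ST rose as well. The ratio of IL11RA to IL6ST was 0.770, 1.01 and 1.75% in parent and 0.196, 0.176 and 0.179% in ADRr libraries, 6.03-fold lower. The ratio of OSMR to LIFR was 678, 639 and 662% in parent and 592, 629 and 670% in ADRr libraries, and here the groups overlapped. The exact two-sided permutation test gave p = 0.1, 0.1 and 0.3 for these 3 ratios (0.15, 0.15 and 0.3 adjusted over the 3), and 0.1 is the smallest value that 3 against 3 libraries can give.

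**Figure D4:**
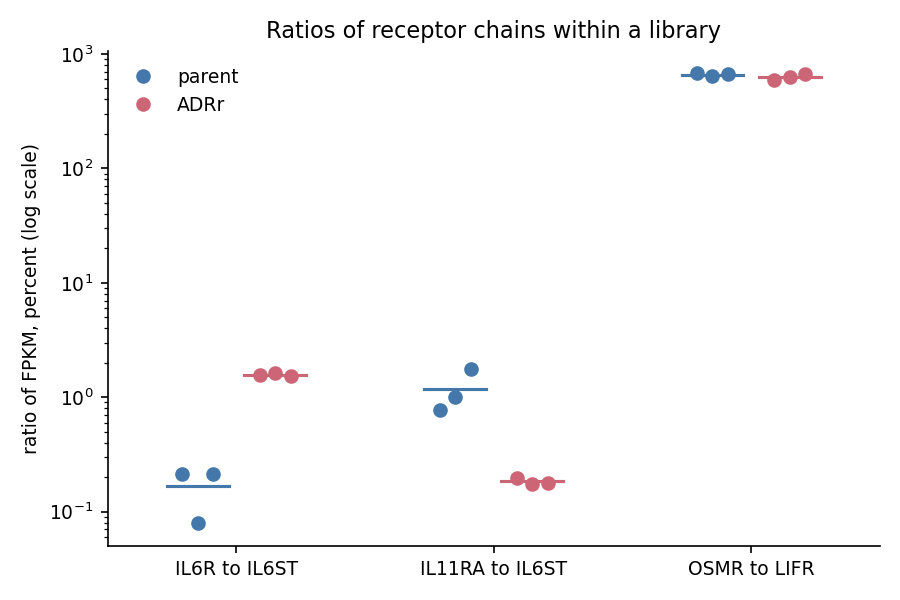
Ratio of the FPKM of receptor chains in percent (y axis, log scale) for each library, with group means as lines. IL6R to IL6ST lies at 0.0794 to 0.214% in parent and at 1.52 to 1.62% in ADRr libraries, IL11RA to IL6ST moves the other way, and OSMR to LIFR overlaps between groups.

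The rest of the family was measured in the same fit through 10 further genes. Of these, 5 were tested, and 3 were called higher, 1 lower and 1 not called, with a median log2 fold change of 0.42, beside 29.2% higher and 29.6% lower over all tested genes. EBI3, a soluble receptor-like subunit that pairs with other chains to form IL27 and IL35, had 149, 122 and 163 normalized counts in parent and 1079, 1176 and 1093 in ADRr libraries. Its log2 fold change of 2.94 (SE 0.097, adjusted p = 3.0e-17 with edgeR) stood beside 2.31 for IL11, the ligand with the largest increase. IL27RA, the chain that binds IL27, went from 268 ± 49.6 to 427 ± 23.5 normalized counts (log2 fold change 0.66, adjusted p = 2.0e-05 with edgeR), while IL27 itself had 0 counts in all 6 libraries. CTF1, the ligand cardiotrophin-1, went from 116 ± 9.10 to 155 ± 19.1 normalized counts (0.42, adjusted p = 0.014 with edgeR), a call that was lost with DESeq2, with glmTreat and without ADRr replicate 3. CNTF, ciliary neurotrophic factor, was called lower at 17.7 ± 6.94 against 8.37 ± 2.55 normalized counts (-1.06, adjusted p = 0.040 with edgeR), but its groups overlapped and the call held in 4 of 13 alternatives. IL31RA, whose midpoint lies 77.9 kb from that of IL6ST, had a log2 fold change of 0.08 (adjusted p = 0.58 with edgeR). Partners of the members were at or near the counting limit. OSM, the ligand of OSMR, had 1 count in a single ADRr library and 0 in the others, IL31 had 0 throughout, and CNTFR had at most 2 counts.

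Downstream of the receptors, 22 genes that carry or brake the signal were tested. Of these 8 were called higher, 6 lower and 8 not, with a median log2 fold change of -0.04, close to the shares of 29.2% and 29.6% over all tested genes. STAT3, the main transcription factor of the pathway, went from 2712 ± 94.0 to 3743 ± 113 normalized counts (0.46, adjusted p = 5.3e-08 with edgeR). JAK1, a kinase bound to gp130, went from 3144 ± 244 to 3925 ± 48.2 (0.32, adjusted p = 2.8e-05), a call lost with glmTreat (adjusted p = 0.10). TYK2, another JAK kinase of the list, moved the other way, from 2480 ± 204 to 1564 ± 45.0 normalized counts (-0.67, adjusted p = 2.8e-09 with edgeR). TYK2 was called lower in all 16 alternatives. JAK2 had a log2 fold change of 0.38 that did not pass (adjusted p = 0.061), and it was called higher in 3 of 16 alternatives (library size alone, without parent replicate 3 and without ADRr replicate 1), with adjusted p from 0.026 to 0.28 over all of them. SOCS3, the brake that STAT3 induces and that binds gp130, had 562, 504 and 592 normalized counts in parent and 241, 273 and 260 in ADRr libraries. It fell by 1.10 on the log2 scale (standard error 0.095, adjusted p = 7.2e-10 with edgeR), the largest decrease of the list. The next decreases were those of PIAS1 (-0.89) and PIAS3 (-0.79), which inhibit STAT proteins. The largest increase was that of SOCS2 (2.46), a brake best known from growth hormone signalling, followed by the adaptor GAB2 (0.90) and the Ras activator SOS1 (0.58).

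Another 16 genes control the supply of IL6 mRNA or the shedding of IL6R. In this list 12 were called higher, 3 lower and 1 not called, with a median log2 fold change of 0.73. All tested genes gave 29.2% higher and 29.6% lower with a median of -0.0061. The list mixes genes that raise and genes that lower IL6 mRNA, so its median gives no direction for IL6 supply. The largest increase was that of RELB, an NF-κB subunit, from 711 ± 82.2 to 2242 ± 172 normalized counts (1.65, adjusted p = 1.4e-14 with edgeR). ZFP36L2 and ZFP36, which destabilise AU-rich mRNAs, both rose by 1.14. ZC3H12A (Regnase-1), the nuclease that degrades IL6 mRNA, fell by 1.39 on the log2 scale, from 1631 ± 106 to 623 ± 49.95 normalized counts. The transcription factor CEBPD fell by 0.90. The 2 sheddases changed in opposite directions. ADAM10 had 9699, 10146 and 9018 normalized counts in parent and 2872, 2923 and 3067 in ADRr libraries (log2 fold change -1.70, adjusted p = 1.4e-17 with edgeR). ADAM17 had 852, 912 and 800 against 1839, 1742 and 1686 (log2 fold change 1.04, adjusted p = 3.4e-12). In FPKM, ADAM10 went from 34.0 ± 2.05 to 10.5 ± 0.379 and ADAM17 from 4.54 ± 0.302 to 9.37 ± 0.409, so the levels of the 2 genes came close to each other in ADRr cells, with ADAM10 still above ADAM17 in every library.

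Of 27 genes known to respond to gp130 signalling, 19 were tested, with 7 called higher, 6 lower and 6 not called and a median log2 fold change of -0.0012, which is near the 29.2% higher and 29.6% lower among all tested genes. VEGFA, an angiogenic growth factor, rose by 2.42 on the log2 scale, MYC by 0.95 and CEBPB by 0.78. The acute-phase genes SAA2 and SAA1 showed the largest decreases (-3.54 and -2.70), followed by SOCS3. SAA1 and SAA2 are near-identical copies, so the split of reads between them is uncertain. Of the genes that the study places beside IL6, LPAR1, a receptor for lysophosphatidic acid, went from 637 ± 60.6 to 486 ± 34.6 normalized counts (-0.39, adjusted p = 4.7e-04 with edgeR), a call lost with glmTreat (adjusted p = 0.051, against 1.3e-05 to 0.051 over all alternatives). MSN, the membrane linker moesin, had a log2 fold change of 0.13 (adjusted p = 0.018), under the threshold on fold change.

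**Figure D5:**
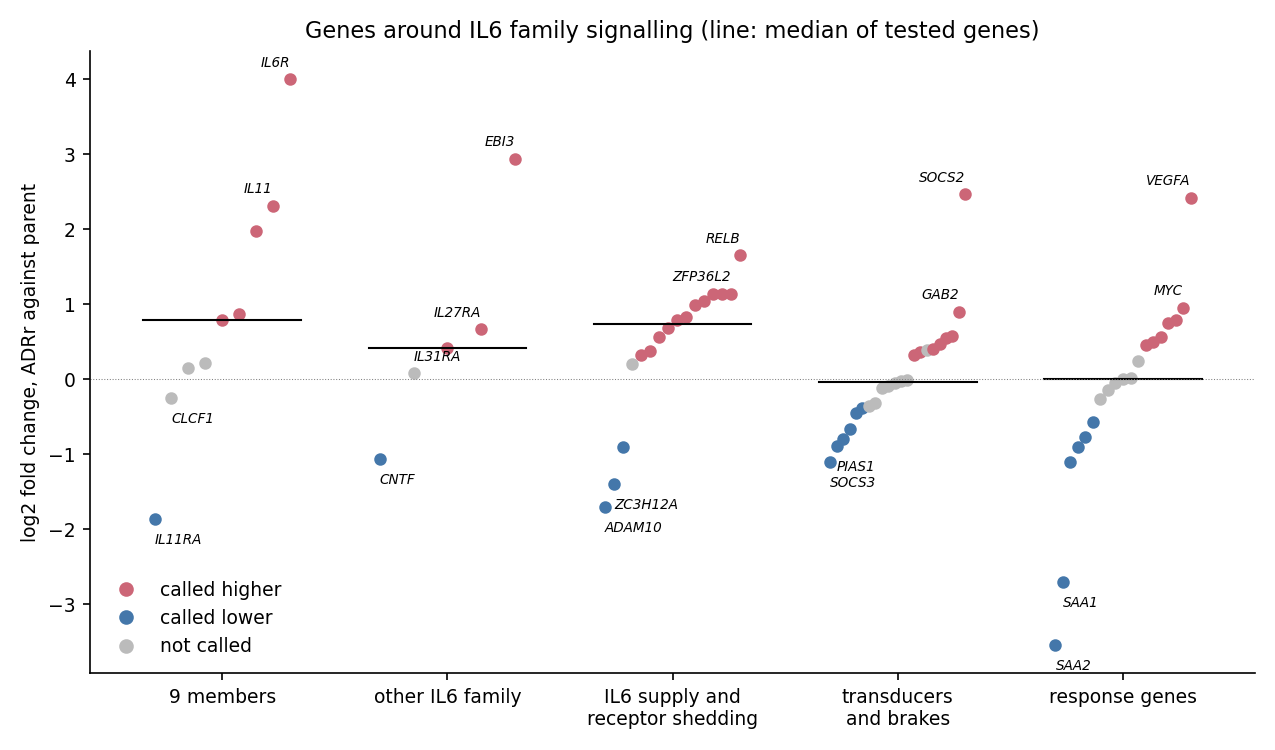
Log2 fold change of ADRr against parent cells (y axis) for every tested gene of 5 lists, each point a gene, coloured by its call, with lines at the list medians. The members and the genes of IL6 supply and receptor shedding have medians of 0.78 and 0.73. Transducers and response genes have medians of -0.04 and -0.0012 with genes on both sides of 0. The supply list mixes genes of opposite effect on IL6 mRNA.

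The members lie on 7 chromosomes, and the 20 nearest tested genes on the same chromosome were compared with each of them. Neighbours of IL6 had a median log2 fold change of 0.10, those of IL6R 0.02, those of IL6ST 0.17 and those of IL11 0.14, beside the members' own changes of 1.97, 4.0, 0.78 and 2.31. The highest single neighbour was at 2.09 for IL6, 0.82 for IL6R, 1.93 for IL6ST and 1.88 for IL11, so neighbours of IL6 and IL6ST reached the member's own value. With the 10 nearest genes the medians were 0.31 for IL6 and -0.26 for IL11. Around LIF the median was 0.43, with 11 of the 20 called higher and 1 lower, and it was 0.21 with 10 and 0.12 with 50 neighbours. The highest neighbour of LIF, at 1.88, was above the 0.86 of LIF itself. IL11RA lay among genes that were lower as well, with a median of -0.57 and 13 of 20 called lower against 1 higher. The lowest of these neighbours, FANCG at -1.83, lay within the confidence interval of IL11RA. These are descriptions of position, with no test.

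The genes most like each called member over the 6 libraries, by the root mean square difference of log2 CPM after centring on the parent mean, were GFPT1 (0.0162) and TSC22D1 (0.0191) for IL6. For IL6R they were LURAP1L (0.0762) and LIPG (0.191), and for IL11 COL6A2 (0.0598) and PCDH1 (0.0839). For LIF they were CCT7 (0.00919) and GCH1 (0.0258), for IL6ST FAM208B (0.0246) and GNA13 (0.0253), and for IL11RA DOCK3 (0.208) and NXPH4 (0.217). Likeness was closer for LIF, IL6 and IL6ST than for IL6R and IL11RA, the members with the lowest counts. As most libraries of a group lay close together, likeness here mostly reflects a similar fold change, such as 1.99 for GFPT1 beside 1.97 for IL6. Whether these genes vary together beyond that was not tested.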

How the data were processed

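The submitters' processing notes name fastp, HISAT2 2.0.5, featureCounts 1.5.0-p3, DESeq2 1.20.0 and GRCh38, and strandedness is not given in the sources used here. The authors deposited raw read counts per gene and FPKM values, which are scaled by gene length and library size. Identifiers and coordinates of all 58735 genes were those of GENCODE 29.

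In R 4.3.3, genes kept by filterByExpr (15242) were TMM-normalized and compared between all 6 libraries with the quasi-likelihood test of edgeR 4.0.16, with no covariate. A call needed a Benjamini-Hochberg adjusted p no higher than 0.05 and a 1.2-fold or larger difference, the paper's threshold as read here. Ratios were compared with exact two-sided permutation tests (scipy 1.17.1). The fits of edgeR, DESeq2 and limma-trend were tried on simulated counts, in which a far smaller share of genes changed than was called here. The permutation tests were not simulated.

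Alternatives were DESeq2's size factors, library size alone, DESeq2 1.42.0, no filter, a minimum of 10 counts in each library, limma-trend (limma 3.58.1) on log2(FPKM + 1) or log2(FPKM + 0.1) with a mean FPKM of at least 0.5, the former with no filter, a replicate block, glmTreat, leaving out libraries one by one, no fold threshold, a threshold of 1.2 on the log2 scale, raw counts for ratios, and 10 or 50 neighbours. Same-numbered libraries did not deviate together (r = 0.00735, -0.0213 and -0.0457).

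Named genes were the members, the detected genes of the rest of the family, LPAR1, MSN, the 3 largest increases and decreases called in each other list, 6 genes named whatever their values (STAT3, JAK1, JAK2, SOCS3, ADAM10 and ADAM17), and the 2 genes most like each called member whose mean reached 50 normalized counts. Overlapping genes, the pseudogene, PDGFRB, TYK2, GALT and FANCG were named after their values were seen. The members and lists were chosen with earlier results of these data known, and no set test was run. A gene of the lists is not reported here.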

Additional observations from a re-analysis of the deposited data

How the results depend on the processing

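Of 216 alternative values, 204 kept their direction and their side of the threshold or stayed within the limits set for counts and medians. Another 8 moved, 4 became stronger, and 0 fold changes or ratios reversed. Neighbour medians were not scored for direction, and that of IL11 changed sign, from 0.14 with 20 neighbours to -0.26 with 10. IL6 lay between 1.94 and 2.00 on the log2 scale, IL11 between 2.18 and 2.40, LIF between 0.84 and 0.89 and IL6ST between 0.74 and 0.83. The number of members called higher was 3 with a threshold of 1.2 on the log2 scale and 7 by the adjusted p alone. The number called lower was 2 by the adjusted p alone, and 0 with log2(FPKM + 1) and 0 with log2(FPKM + 0.1), where the filter on mean FPKM left out IL11RA. With at least 10 counts in every library IL6R was not tested. Leaving out each library in turn gave 5 to 5 members called higher and 1 to 2 called lower, the second being CLCF1 (-0.30 to -0.17). Leave-one-out ranges were 3.70 to 4.195 for IL6R, -2.11 to -1.53 for IL11RA, 0.16 to 0.26 for LIFR and 0.09 to 0.17 for OSMR. The ratio of IL6R to IL6ST changed by 2.88 to 3.60 on the log2 scale, that of IL11RA to IL6ST by -2.85 to -2.26 and that of OSMR to LIFR by -0.11 to -0.02. With the replicate block, 5 members were called higher and 1 lower, IL6 at 1.98, IL6R at 4.005 and IL11RA at -1.83, and 4406 and 4464 genes were called over the whole table against 4451 and 4507 without it. Counts of 5 to 71 set the precision for IL6R in parent cells and for IL11RA.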
